A study of Arabidopsis thaliana with 8 samples.

Results

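The comparison described here is the effect of simulated shade that was common to both harvest times: all 4 shade libraries against all 4 sun libraries, with time as a block, so that each shade library was compared with sun tissue harvested at the same time. It uses 8 of the 8 RNA-seq libraries of the series. All plants were *Arabidopsis* of the Col ecotype, with no mutant or transgene, so every group shares the same genotype. They were grown in soil in long days under simulated sun, which is white light with some added far-red light. From 4 hours after lights on they either stayed in the sun or were moved to simulated shade, in which extra far-red light shifts the balance of red and far-red wavelengths without lowering the light used for photosynthesis. The groups are sun at 1 hour, shade at 1 hour, sun at 4 hours and shade at 4 hours, with 2 libraries in each. Each library came from 5 pooled plants from which roots, hypocotyls and cotyledons had been cut away, so it holds leaves and shoot apex and averages over plants and cell types. In such bulk tissue, fewer cells of a type and less RNA per cell cannot be told apart.

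Plants read the red to far-red ratio with phytochromes. Light rich in red keeps phytochrome B in its active form, which destabilises the bHLH transcription factors called PHYTOCHROME INTERACTING FACTORS (PIFs). Far-red light from neighbours shifts phytochrome B to its inactive form, PIFs accumulate, and they switch on further transcription factors and genes of auxin synthesis. Auxin and other growth hormones then drive the elongation of stems and petioles and the raising of leaves that are known as shade avoidance.

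Libraries held between 1154019 and 4680620 reads on genes, and the smallest was replicate 1 of shade at 4 hours. A single read is worth between 0.216 and 0.856 CPM, the read count of a gene scaled to the size of its library. Across tested genes, Spearman's rho between replicates was 0.979 (sun) and 0.974 (shade) after 1 hour, and 0.985 (sun) and 0.951 (shade) after 4 hours. All 8 markers of leaf blade were detected, summing to between 35412 and 46807 CPM in a library. At 4 hours they summed to at least 44707 CPM in sun and at most 42861 CPM in shade. At 1 hour sun and shade overlapped. Markers of shoot apex summed to between 62.1 and 99.4 CPM, with *WUS*, which marks the organising centre of the meristem, at 0 in every library. Their sums were 95.0 to 97.1 CPM in sun and 72.8 to 86.9 CPM in shade at 4 hours. At 1 hour they were 81.7 to 99.4 CPM in sun and 62.1 to 84.5 CPM in shade. Whether the mix of tissues differed between sun and shade was not tested. Among 12 root markers, 5 were at 0 in all 8 libraries (*IRT1*, *EXPA7*, *EXPA18*, *RHD6* and *LRX1*), and most of the summed root signal of 228 to 384 CPM came from *PYK10*. Flower and seed markers summed to at most 2.21 and 3.43 CPM. Guard cell markers summed to between 1252 and 3776 CPM.

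Of 19280 genes tested, 99 (0.513%) changed with shade over both times at an adjusted p under 0.05. Most of them rose: 88 genes (0.456%) had more transcript in shade and 11 (0.0571%) had less. The leading genes were the auxin response repressor *IAA29*, the hydroxyjasmonate sulfotransferase *ST2A*, the ethylene synthesis gene *ACS8*, the growth gene *SAUR22* and the auxin synthesis gene *YUC8*, and the largest falls were in the thioredoxin *TRX5* and the flavonol synthase *FLS1*. At the stricter threshold of 0.001 there were 9 genes (0.0467%), all with more transcript in shade: *MIDA9*, *IAA29*, *IAA2*, *IAA7*, *SAUR22*, *AT5G12050*, *AT5G62280*, *AT4G25260* and *FLA9*. Without adjustment, 868 genes with more and 917 genes with less transcript in shade had a p under 0.05. The change of a gene is given as the log2 fold change of shade over sun on the log2(CPM + 1) scale, which understates the change of genes with few reads. It had a median of 1.41 in the 88 genes (range 0.43 to 3.70) and of -0.72 in the 11 genes (range -1.41 to -0.50). Over all tested genes the median was -0.01.

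**Figure D1:**
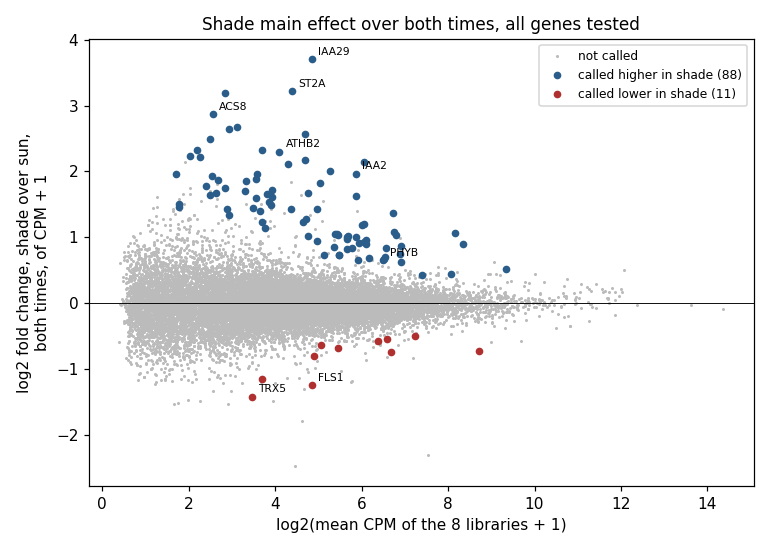
Shade main effect of each of the 19280 tested genes. The horizontal axis is log2 of the mean CPM of the 8 libraries plus 1, the vertical axis is the log2 fold change of shade over sun with time as a block, and coloured points are the 88 genes called higher and the 11 called lower at an adjusted p under 0.05. The called rises reach 3.70 (*IAA29*) and the called falls reach -1.41 (*TRX5*).

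The libraries behind these calls were well separated, but this order is read from the values that gave the calls and is no separate support for them. In 87 of the 88 genes, both shade libraries lay above both sun libraries at 1 hour and again at 4 hours, an order seen in 4.5% of all tested genes. The exception was *SHY2* (*IAA3*), in which 1 shade library overlapped the sun libraries at 4 hours. In the 11 lower genes both shade libraries lay below both sun libraries at both times, against 5.01% of all tested genes. In 71 of the 88 and 10 of the 11 genes the 4 shade libraries lay wholly beyond the 4 sun libraries, whatever the time. Of all 19280 tested genes, the 4 shade libraries lay wholly above the 4 sun libraries in 348 and wholly below them in 351. With light exchanged within each time there are 36 arrangements, so an exact two-sided permutation test of a single gene cannot give a p below 0.0556, and the calls rest on the spread that limma shares across genes.

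The gene lists below were chosen with earlier results of these data known. Over all tested genes 0.513% were called, which is the share to set beside each list count. Among the shade regulators of the homeodomain-leucine zipper II and helix-loop-helix families, 4 of 17 tested genes (23.5%) rose and none fell. The list had a median log2 fold change of 0.91. The count was 2 without any single library of 1 hour and 7 without replicate 2 of shade at 4 hours. *ATHB2* and *BEE3* were called in each of the 8 fits that left out 1 library, and *HAT2* and *BEE1* were not. *ATHB2*, an HD-ZIP II repressor long used as a marker of the response to far-red light, held 2.99 and 8.37 CPM in sun against 42.0 and 43.1 CPM in shade at 1 hour, then 3.53 and 2.14 CPM in sun against 20.6 and 6.68 CPM in shade at 4 hours. Every shade library but replicate 2 at 4 hours stood above every sun library, and the log2 fold change was 2.3 (SE 0.35, adjusted p = 0.00508). Its relative *HAT2*, also HD-ZIP II, rose from 14.4 and 17.0 to 77.2 and 80.8 CPM at 1 hour and held 10.6 and 9.73 CPM in sun against 16.3 and 15.7 CPM in shade at 4 hours. Most of the change of *HAT2* thus lay at 1 hour (log2 fold change over both times 1.43, SE 0.26, adjusted p = 0.0177).

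*BEE3* and *BEE1*, bHLH factors induced by brassinosteroid, both rose. *BEE3* went from 3.24 and 5.30 to 21.6 and 19.5 CPM at 1 hour and from 1.76 and 2.61 to 9.42 and 8.43 CPM at 4 hours, without overlap between sun and shade (log2 fold change 1.86, SE 0.23, adjusted p = 0.00151). *BEE1* had a log2 fold change of 1.45 (SE 0.30, adjusted p = 0.0458). Outside the list, 2 other bHLH genes rose. The uncharacterised *AT3G21330* was nearly silent in sun, with 1 read in the 4 sun libraries together, and held 29.0 and 12.4 CPM in shade at 1 hour and 5.99 and 2.03 CPM at 4 hours (log2 fold change 3.18, SE 0.43, adjusted p = 0.00246). *PIL2*, a relative of the PIFs also named *PIF6*, had a log2 fold change of 1.60 (SE 0.30, adjusted p = 0.0233), but its gene model overlaps *AT3G62080* on the other strand.

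Several classical shade genes did not pass the test over both times. Of those named here, *PIL1*, *PAR1* and *HFR1* were called under some of the alternative settings, and *HAT3* and *BIM1* under none. *PIL1*, a bHLH gene induced within minutes of shade in seedlings, held 0.747 and 3.63 CPM in sun against 10.8 and 9.77 CPM in shade at 1 hour, then 1.32 and 3.32 CPM in sun against 7.71 and 4.94 CPM in shade at 4 hours (log2 fold change 1.59, SE 0.34, adjusted p = 0.0599). Its shade libraries lay above its sun libraries at both times. *HFR1*, which encodes an inhibitor of PIFs, varied more between replicates at 4 hours, with 9.42 and 0.872 CPM in shade (log2 fold change 1.66, SE 0.49, adjusted p = 0.228). *PAR1*, another growth-restraining HLH gene, had a log2 fold change of 0.83 (SE 0.18) with an adjusted p of 0.0517. *HAT3* and *BIM1* had values of 0.18 and 0.33 with adjusted p values of 0.754 and 0.447.

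Of 13 tested phytochrome, cryptochrome and *PIF* genes, *PHYB* rose and none fell. *PHYB*, the main sensor of the red to far-red ratio, held 64.5 and 77.3 CPM in sun against 128 and 123 CPM in shade at 1 hour, then 63.5 and 71.7 CPM in sun against 101 and 89.8 CPM in shade at 4 hours. All 4 shade libraries were above all 4 sun libraries, a ratio of mean CPM of 1.59 (log2 fold change 0.65, SE 0.11, adjusted p = 0.013). *PHYA*, the photoreceptor of far-red light, was just outside the threshold at a log2 fold change of 0.62 (SE 0.13, adjusted p = 0.0503). The list as a whole had a median of 0.11. Of 23 tested genes of light signalling, 1 rose: *PKS2*, whose protein binds phytochrome and phototropins, went from 33.4 and 30.4 to 58.8 and 50.3 CPM at 1 hour and from 19.6 and 17.6 to 29.1 and 32.6 CPM at 4 hours (log2 fold change 0.73, SE 0.13, adjusted p = 0.0144). *PHYB* and *PKS2* were each lost in at least 1 of the 8 fits that left out a library.

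**Figure D2:**
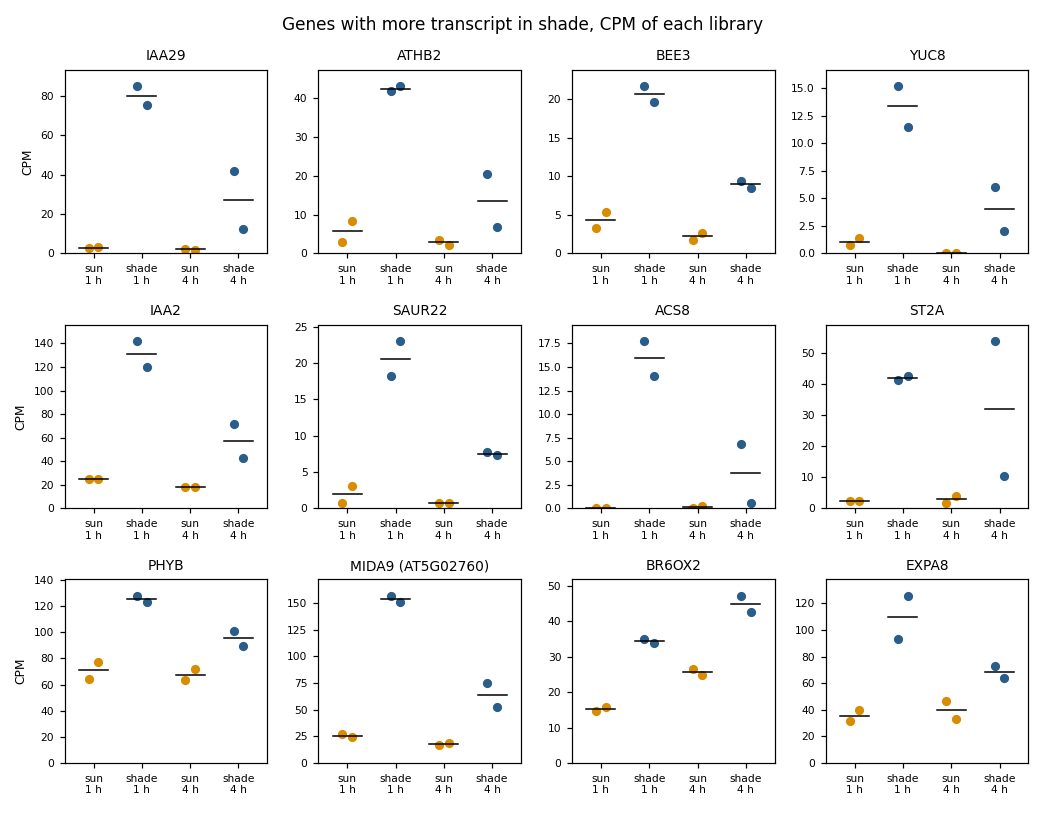
CPM of each library for 12 genes that rose with shade, 2 libraries per condition as points and their mean as a line, orange for sun and blue for shade. *ATHB2* ran from 2.14 to 8.37 CPM in sun and from 6.68 to 43.1 CPM in shade, and in *IAA29*, *ST2A* and *ACS8* the 2 shade libraries at 4 hours stood far apart.

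Auxin is made from tryptophan in a short route whose last step is done by YUCCA flavin monooxygenases. Of 15 tested auxin synthesis genes, 1 rose. *YUC8* was low in sun, at 0.747 and 1.40 CPM at 1 hour and 0 and 0 CPM at 4 hours, and held 15.1 and 11.5 CPM in shade at 1 hour and 5.99 and 2.03 CPM at 4 hours (log2 fold change 2.50, SE 0.33, adjusted p = 0.00182). *YUC9* showed the same order at 1 hour, with 0 and 0 CPM in sun against 11.2 and 6.32 CPM in shade. At 4 hours *YUC9* had 5 reads in replicate 1 of shade and none in replicate 2, and it did not pass over both times (log2 fold change 2.15, SE 0.53, adjusted p = 0.116). The list had a median of 0.07.

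The Aux/IAA proteins are short-lived repressors of auxin response, and many of their genes are themselves induced by auxin. Of 24 tested members 6 (25.0%, against 0.513% of all tested genes) rose and none fell, and the list had a median of 0.50. *IAA29* had the largest rise of all called genes, from 2.49 and 3.07 to 84.8 and 75.3 CPM at 1 hour and from 2.21 and 1.90 to 42.0 and 12.5 CPM at 4 hours (log2 fold change 3.70, SE 0.34, adjusted p = 0.000136). *IAA19* rose from 7.97 and 4.74 to 88.9 and 56.9 CPM at 1 hour and from 4.41 and 3.09 to 20.6 and 11.6 CPM at 4 hours, so that its lowest shade library was above its highest sun library (log2 fold change 2.57, SE 0.31, adjusted p = 0.0011). *IAA2* held between 17.8 and 25.1 CPM in the sun libraries and between 43.0 and 142 CPM in the shade libraries (log2 fold change 1.97, SE 0.18, adjusted p = 0.000136).

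*IAA7*, which gives the *axr2* mutant its name, rose by a similar amount at both times, from 68.5 and 73.7 to 151 and 130.2 CPM at 1 hour and from 73.0 and 72.2 to 186 and 134 CPM at 4 hours (log2 fold change 1.04, SE 0.12, adjusted p = 0.000843). *IAA16* (log2 fold change 0.68, adjusted p = 0.0138) and *SHY2* (1.05, adjusted p = 0.0491) completed the 6. *IAA1* and *IAA6* were not called (1.43 with an adjusted p of 0.0511, and 1.19 with 0.268). *IAA29*, *IAA19*, *IAA2* and *IAA7* were called in each of the 8 fits that left out 1 library, and *IAA16* and *SHY2* were not.

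Of 8 tested *GH3* genes, 1 rose: *DFL1* (*GH3.6*), whose enzyme joins auxin to amino acids, had a ratio of mean CPM of 2.0 (log2 fold change 0.96, SE 0.17, adjusted p = 0.0183). Of 21 tested auxin transport genes 3 rose, and 1 did when any single library of 1 hour was left out. The efflux carrier gene *PIN7* went from 92.9 and 87.1 to 156 and 139 CPM at 1 hour and from 98.1 and 95.4 to 146 and 139 CPM at 4 hours, with no overlap (log2 fold change 0.63, SE 0.10, adjusted p = 0.00532). The influx carrier gene *AUX1* (0.74, SE 0.13, adjusted p = 0.0147) and the ABC transporter gene *ABCB19* (0.43, SE 0.09, adjusted p = 0.0489) moved the same way. These 3 genes were 14.3% of the tested auxin transport genes, against 0.513% called of all tested genes. *PIN7* was called in each fit that left out 1 library, and *AUX1*, *ABCB19* and *DFL1* were not. *PIN3*, a carrier that redirects auxin in shaded seedlings, held 56.3 and 65.9 CPM in sun against 169 and 262 CPM in shade at 1 hour. At 4 hours its values overlapped, at 80.9 and 95.4 CPM in sun against 115 and 91.8 CPM in shade, and it was not called over both times (log2 fold change 1.00, SE 0.24, adjusted p = 0.116).

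*SAUR* genes encode small proteins that activate plasma membrane proton pumps and so promote cell expansion, and they made up the largest group of called genes. Of 51 tested members 11 (21.6%, against 0.513% of all tested genes) rose and none fell, and the list had a median of 0.71. *SAUR22* went from 0.747 and 3.07 to 18.2 and 23.0 CPM at 1 hour and from 0.662 and 0.712 to 7.71 and 7.27 CPM at 4 hours (log2 fold change 2.67, SE 0.30, adjusted p = 0.000843). *SAUR20* kept its change at both times, with 4.23 and 7.26 CPM in sun against 18.2 and 27.9 CPM in shade at 1 hour and 1.54 and 3.32 CPM in sun against 12.8 and 10.5 CPM in shade at 4 hours (log2 fold change 1.88, SE 0.25, adjusted p = 0.00205). The other 9 were *SAUR15*, *SAUR19*, *SAUR24*, *SAUR28*, *SAUR63*, *AT5G18030*, *AT1G29450*, *AT1G29460* and *AT4G34770*, with log2 fold changes between 1.43 and 2.23. In 6 of the 11 the call held in each fit that left out 1 library. *SAUR* genes lie in clusters of similar copies on chromosomes 1 and 5, and short reads can match several of them, so the split of reads among *SAUR19*, *SAUR20*, *SAUR22*, *SAUR24* and *AT5G18030* is uncertain.

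The sequence in front of the called genes was read from the RefSeq annotation of TAIR10.1, as 300 bases around each gene start, 250 before it and 50 after it, for 19200 tested genes. The hexamer CACGTG (the G-box), which PIFs and other bHLH factors bind, was found in 8 of 87 windows of genes with more transcript in shade (9.2%) and in 8.71% of all windows. The variant CACATG, also bound by PIFs, was found in 32 of the 87 (36.8%) and in 12.7% of all windows. Its share was 30.3% in the 76 called genes that are not *SAUR* genes, 81.8% in the 11 called *SAUR* genes and 47.1% in all 51 tested *SAUR* genes. TGTCTC, the auxin response element, was found in 24.1% of the 87 and 13.7% of all windows, and AATNATT, a core bound by HD-ZIP proteins, in 39.1% and 34.5%. Among the 11 genes with less transcript in shade, 1 window held CACGTG, 2 held CACATG, 1 held TGTCTC and 4 held AATNATT. Both strands were searched, and CACGTG and AATNATT read the same on each. A match is a description of these letters and not a bound site.

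The stretches shown here hold CACATG before 6 called genes of auxin response, auxin synthesis or ethylene synthesis and before the HD-ZIP II gene *HAT2*, and *IAA29* and *ST2A* have no CACATG in their windows. The motif is written CATGTG where it lies on the other strand, with the match in capitals. The stretches are taken from TAIR10.1 in the direction of transcription and end before the gene start. *ACS8* has its match 9 bases before the start and *YUC8* 47 bases before it. The 3 *SAUR* genes lie in 1 cluster and were called together. *SAUR20* and *SAUR24* of the same cluster were also called and have no CACATG in their windows.
ACS8, chr4:17752034-17752078, plus strand: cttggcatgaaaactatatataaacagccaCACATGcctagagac
YUC8, chr4:14192486-14192551, plus strand: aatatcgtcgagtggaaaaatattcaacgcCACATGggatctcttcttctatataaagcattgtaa
ACS5, chr5:26332946-26333011, minus strand: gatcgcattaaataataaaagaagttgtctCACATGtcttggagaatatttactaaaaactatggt
HAT2, chr5:19218090-19218155, minus strand: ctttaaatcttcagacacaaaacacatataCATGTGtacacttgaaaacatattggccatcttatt
SAUR22, chr5:5975157-5975222, minus strand: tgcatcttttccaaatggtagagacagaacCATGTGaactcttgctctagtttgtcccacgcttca
SAUR19, chr5:5963493-5963558, minus strand: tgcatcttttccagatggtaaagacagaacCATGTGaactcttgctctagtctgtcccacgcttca
AT5G18030, chr5:5968280-5968345, plus strand: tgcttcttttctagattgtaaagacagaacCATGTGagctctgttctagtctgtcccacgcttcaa

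*IAA19* holds both hexamers before its start, CACATG 171 bases and CACGTG 64 bases away, and the *PHYB* window holds CACGTG 2 times and no CACATG, of which 1 is shown. The stretches are given to show the G-box in a called gene of auxin response and in the photoreceptor gene.
IAA19, chr3:5263794-5263859, plus strand: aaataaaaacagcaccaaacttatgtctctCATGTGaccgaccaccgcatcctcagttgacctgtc
IAA19, chr3:5263901-5263966, plus strand: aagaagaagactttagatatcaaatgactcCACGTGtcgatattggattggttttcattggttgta
PHYB, chr2:8139615-8139680, plus strand: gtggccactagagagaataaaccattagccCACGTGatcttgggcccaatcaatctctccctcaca

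The rate of ethylene synthesis is set by ACC synthases (ACS). Of 11 tested genes of ethylene synthesis 3 (27.3%, against 0.513% of all tested genes) rose and none fell. The list had a median of 0.44. *ACS8* had 1 read in the 4 sun libraries together and held 17.7 and 14.1 CPM in shade at 1 hour. At 4 hours it held 6.85 CPM in replicate 1 of shade and 0.581 CPM in replicate 2, which are 8 and 2 reads (log2 fold change 2.87, SE 0.52, adjusted p = 0.0183). *ACS5* had 1 read in each sun library and held 4.33 and 7.76 CPM in shade at 1 hour and 3.43 and 1.74 CPM at 4 hours (log2 fold change 1.97, SE 0.34, adjusted p = 0.0124). Beyond this list the ethylene receptor genes *ERS1* (0.82, SE 0.17, adjusted p = 0.0435) and *ERS2* (1.14, SE 0.20, adjusted p = 0.0131), whose proteins repress the response when ethylene is absent, also rose. *ACS8*, *ACS5*, *ERS1* and *ERS2* were each lost in at least 1 of the 8 fits that left out a library.

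Among the listed jasmonate genes 1 rose, the sulfotransferase gene *ST2A*, and its neighbour *ST2B*, which is not on the list, rose too. *ST2A*, whose sulfotransferase turns hydroxyjasmonate into its inactive sulfate, had the second largest rise, from 2.49 and 2.23 to 41.3 and 42.8 CPM at 1 hour and from 1.76 and 4.04 to 53.9 and 10.5 CPM at 4 hours (log2 fold change 3.22, SE 0.39, adjusted p = 0.00112). Its neighbour on chromosome 5, *ST2B*, rose from 6.97 and 10.9 to 28.6 and 34.2 CPM at 1 hour and from 4.19 and 4.04 to 13.7 and 9.01 CPM at 4 hours (log2 fold change 1.49, SE 0.22, adjusted p = 0.00413). In both genes the shade libraries lay above the sun libraries at each time, and in *ST2A* at any time. *ST2A* was the 1 called gene among 17 tested genes of jasmonate synthesis and inactivation (median -0.03). None of 19 genes of jasmonate signalling and output was called, with a median of -0.14. *TIFY7* (*JAZ9*), a jasmonate response repressor and the member with the smallest p, held 78.0 and 48.8 CPM in sun against 16.0 and 23.6 CPM in shade at 1 hour, but at 4 hours its replicates ranged from 30.9 to 126 CPM in sun and from 15.7 to 83.1 CPM in shade (log2 fold change -1.19, SE 0.45, adjusted p = 0.397).

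For brassinosteroids, 1 of 16 tested genes rose. *BR6OX2*, which encodes the last enzyme of brassinolide synthesis, held 14.7 and 15.9 CPM in sun against 35.0 and 33.9 CPM in shade at 1 hour, then 26.5 and 24.9 CPM in sun against 47.1 and 42.7 CPM in shade at 4 hours. Replicates were close at every condition, and sun and shade did not overlap (log2 fold change 0.95, SE 0.13, adjusted p = 0.00334). None of 11 gibberellin synthesis and breakdown genes was called. *GA20OX2*, an enzyme gene that limits gibberellin synthesis, had a log2 fold change of 1.12 (SE 0.41, adjusted p = 0.375), with a value of 2.09 at 1 hour and 0.15 at 4 hours. *GAI*, which encodes a DELLA repressor of gibberellin response, rose from 75.7 and 69.2 to 154 and 140.2 CPM at 1 hour and from 60.0 and 61.5 to 96.8 and 95.6 CPM at 4 hours (log2 fold change 0.83, SE 0.11, adjusted p = 0.00182). *GASA6*, a gibberellin-regulated gene of a secreted peptide, had a log2 fold change of 1.00 (SE 0.13, adjusted p = 0.00182).

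Of the cytokinin genes named here, *CKX1* rose and *WOL* fell. *CKX1*, which encodes a cytokinin-degrading oxidase, rose from 1.25 and 1.12 to 3.68 and 3.74 CPM at 1 hour and from 0.221 and 0.712 to 5.14 and 3.78 CPM at 4 hours (log2 fold change 1.51, SE 0.30, adjusted p = 0.0395). It was the 1 called gene of 17 tested in its list (median -0.22), of which 4 had a value above 0. The calls of edgeR and DESeq2 did not both include *CKX1*, nor did each fit that left out 1 library. The *CKX1* gene model overlaps *AT2G41515* on the other strand by 2057 bases. *WOL* (*CRE1*, *AHK4*), a cytokinin receptor gene outside that list, fell. It held 30.1 and 34.3 CPM in sun against 23.8 and 23.0 CPM in shade at 1 hour, then 41.2 and 41.5 CPM in sun against 18.0 and 18.3 CPM in shade at 4 hours (log2 fold change -0.80, SE 0.16, adjusted p = 0.0347). Of 20 tested abscisic acid genes none was called, with a median of 0.26, and *NCED3*, the enzyme gene that limits its synthesis, had a log2 fold change of 1.28 (SE 0.35, adjusted p = 0.19).

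*EXPA8* was the 1 called gene of 14 tested alpha-expansins, which loosen walls, and went from 31.6 and 39.6 to 93.4 and 126 CPM at 1 hour and from 46.8 and 33.2 to 72.8 and 64.2 CPM at 4 hours (log2 fold change 1.18, SE 0.18, adjusted p = 0.00444). *XTH8* was the 1 called gene of 21 tested xyloglucan endotransglucosylases (0.85, SE 0.14, adjusted p = 0.00774). The arabinogalactan protein gene *FLA9* held between 33.7 and 46.3 CPM in sun and between 63.9 and 114 CPM in shade (log2 fold change 1.2, SE 0.14, adjusted p = 0.000852). The cell wall gene *DGR2* went from 180.1 and 162 to 512 and 442 CPM at 1 hour and from 195 and 183 to 313 and 289 CPM at 4 hours (1.07, SE 0.14, adjusted p = 0.00182). *LNG1* and *LNG2*, which together promote lengthwise growth of leaves, both rose, by 0.66 (SE 0.14, adjusted p = 0.0458) and 0.91 (SE 0.14, adjusted p = 0.00693) on the log2 scale. *EXPA8*, *XTH8*, *FLA9*, *DGR2* and *LNG2* were called in each fit that left out 1 library, and *LNG1* was not.

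The gene with the smallest p of all was *MIDA9* (*AT5G02760*), which encodes a type 2C protein phosphatase and is known from the light response of seedlings. It held 27.1 and 24.3 CPM in sun against 156 and 151 CPM in shade at 1 hour, then 16.5 and 19.2 CPM in sun against 75.4 and 52.0 CPM in shade at 4 hours. The ratio of mean CPM was 4.99 (log2 fold change 2.15, SE 0.17, adjusted p = 4.41e-05). Its 3' neighbour *MOS11* (*AT5G02770*) overlaps it on the other strand by 91 bases. Other large rises were in genes with little annotation. *AT5G44260*, a CCCH zinc finger gene also named *TZF5*, held 0.498 and 1.12 CPM in sun against 16.2 and 4.89 CPM in shade at 1 hour, then 0.662 and 1.42 CPM in sun against 20.6 and 7.85 CPM in shade at 4 hours (log2 fold change 2.64, SE 0.37, adjusted p = 0.00334). *AT5G62280*, of a family of unknown function, rose by equal amounts at both times (2.32 at 1 hour and 2.33 at 4 hours, adjusted p over both = 0.00085).

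*AT5G39535* is listed among the 10 largest rises (log2 fold change 2.32, SE 0.45, adjusted p = 0.0292), but it is a proline tRNA gene of 72 bases that lies inside the model of *AT5G39530*. It held between 0 and 2.74 CPM in sun and between 3.24 and 10.3 CPM in shade, while *AT5G39530* held between 62.0 and 124 CPM in all 8 libraries and had a log2 fold change of 0.09 (adjusted p = 0.835). Of the 98 called genes with an entry in TAIR10.1, 28 overlap another gene model, 22 of them on the opposite strand, and the library kit does not mark strand. *AT5G01210* and *AT5G01215* lie across each other and had nearly the same values (1.05 and 1.04), *AT3G01472* had the same values as *HB-1* (0.73), and *AT5G57760* and *AT5G57770* overlap by 404 bases, so these 6 entries may hold the reads of fewer genes. In the order of tested genes along the chromosomes, 17 called genes had a called gene beside them, in 10 neighbouring pairs. *IAA2* with *IAA7* and *ST2A* with *ST2B* were among these pairs. The counts of overlaps and of neighbours were not set beside all tested genes, so neither is read as a trait of the called genes.

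*COL5*, a CONSTANS-like gene, was the 1 called gene of 16 tested genes of photoperiodic flowering. It held 99.4 and 123 CPM in sun against 173 and 199 CPM in shade at 1 hour, then 33.1 and 35.9 CPM in sun against 117 and 73.8 CPM in shade at 4 hours (log2 fold change 1.08, SE 0.16, adjusted p = 0.00494). Its level in sun fell by 1.65 on the log2 scale between 1 and 4 hours, while both shade libraries stayed above the sun libraries at each time. Of the 99 called genes, 10 (10.1%) changed between 1 and 4 hours in sun at an adjusted p under 0.05, against 3.58% of all tested genes. Among the 88 with more transcript in shade, 7 fell and 2 rose over these hours in sun.

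The 11 genes with less transcript in shade were more abundant in sun than many of the rising genes, with sun means between 15.1 and 518 CPM. Sun values entered the calls, so this contrast is partly set by the selection. *TRX5*, a cytosolic thioredoxin gene linked to disease responses, held 19.2 and 18.7 CPM in sun against 5.19 and 3.74 CPM in shade at 1 hour, then 14.8 and 7.83 CPM in sun against 5.99 and 4.36 CPM in shade at 4 hours (log2 fold change -1.41, SE 0.26, adjusted p = 0.022). Both flavonoid genes among the 11 encode enzymes. *FLS1*, flavonol synthase, held 31.6 and 31.3 CPM in sun against 20.1 and 16.4 CPM in shade at 1 hour, then 43.4 and 50.1 CPM in sun against 8.56 and 20.6 CPM in shade at 4 hours (log2 fold change -1.24, SE 0.24, adjusted p = 0.0318). *TT4*, chalcone synthase at the head of the pathway, held 135 and 97.7 CPM in sun against 84.4 and 92.0 CPM in shade at 1 hour, then 122 and 150.1 CPM in sun against 59.1 and 67.7 CPM in shade at 4 hours (log2 fold change -0.73, SE 0.15, adjusted p = 0.0489).

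Of 17 tested genes of the flavonoid and anthocyanin pathway, 2 fell and none rose, and 15 had a value below 0. The share called was 11.8%, against 0.513% of all tested genes. The list median of -0.73 was the lowest of the 26 lists. *F3H*, the next enzyme gene of the pathway after chalcone isomerase, had shade libraries below its sun libraries at both times (log2 fold change -0.80, SE 0.19, adjusted p = 0.113). *DFR*, which leads to anthocyanins, varied between 6.14 and 34.9 CPM in sun and between 4.36 and 7.76 CPM in shade (log2 fold change -1.48, adjusted p = 0.155). The other 8 falling genes included *AT4G19380*, a predicted long-chain fatty alcohol dehydrogenase gene (-1.15, SE 0.23, adjusted p = 0.0318), and *AT4G22485*, a lipid transfer protein gene that held between 469 and 568 CPM in sun and between 215 and 443 CPM in shade (-0.72, SE 0.13, adjusted p = 0.0177). None of the 11 falls was called in each of the 8 fits that left out 1 library, against 45 of the 88 rises.

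**Figure D3:**
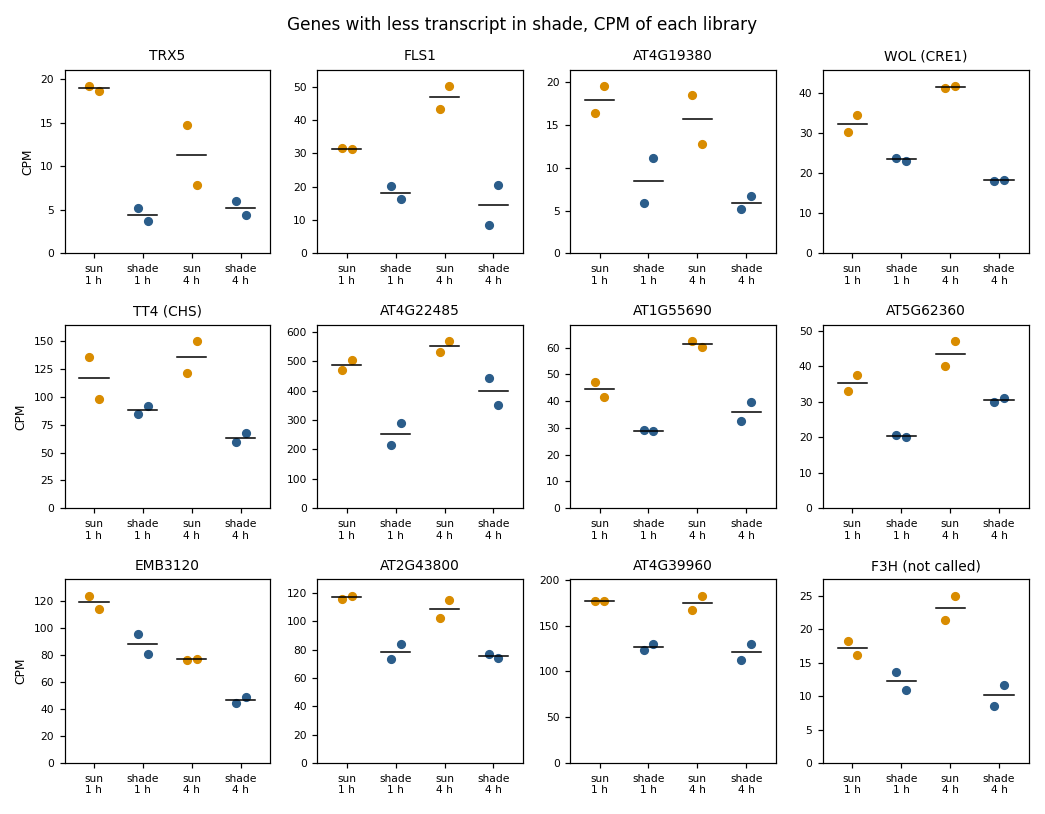
CPM of each library for the 11 genes called lower in shade and for *F3H*, which was not called, 2 libraries per condition as points and their mean as a line, orange for sun and blue for shade. In all 12 panels the shade libraries lie below the sun libraries at each time, as in *WOL* with 18.0 and 18.3 CPM against 41.2 and 41.5 CPM at 4 hours.

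All 99 genes had the same direction at 1 hour and at 4 hours. The test was for an effect common to both times, so it favours such genes, and this count is no separate evidence. In the rising genes the median log2 fold change was 1.58 at 1 hour and 1.12 at 4 hours, and 69 of the 88 were larger at 1 hour. In the falling genes it was -0.60 and -0.76, and 4 of the 11 were larger at 1 hour. The difference between the times had an unadjusted p under 0.05 (limma) in 30 of the 99 genes, 22 of them larger at 1 hour. The share of all tested genes under this unadjusted threshold was not counted, so the 30 are not read as many or few. The difference passed adjustment in none of the 99, the lowest adjusted p being 0.12 in *HAT2*. The called genes with the clearest differences were *HAT2* (2.26 at 1 hour and 0.61 at 4 hours), *ADS1*, *AT1G67900*, *AT5G66580*, *AT1G21050* and *AT4G25260*. *ADS1*, a fatty acid desaturase gene, was the 1 of these 6 with more change at 4 hours, from 15.2 and 18.4 to 42.6 and 24.7 CPM at 1 hour and from 10.1 and 8.55 to 65.9 and 68.3 CPM at 4 hours (unadjusted p of the difference 0.000176 and adjusted p 0.213, limma).

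Tested at a single time in the model of the 4 conditions, 91 genes (0.472%) passed at 1 hour and 23 (0.119%) at 4 hours. These tests share libraries with the comparison over both times. With 1 library left out the count ran from 14 to 186 at 1 hour and from 0 to 921 at 4 hours, the 0 without replicate 2 of sun and the 921 without replicate 2 of shade at 4 hours. Of the 99 genes, 56 passed at 1 hour, 18 at 4 hours and 8 at both. The other 33 (26 rises and 7 falls) passed at neither time alone, a count of 21 to 52 with 1 library left out. Among these 33, the smallest p values included those of *AT5G44260*, *SAUR15*, *SAUR24*, *LNG2*, *XTH8*, *AT5G01210* and *HB-1*, a homeodomain-leucine zipper I gene. *XTH8* is an example with a similar change at each time, 0.82 at 1 hour (adjusted p = 0.145) and 0.88 at 4 hours (adjusted p = 0.16). In the other direction, 35 genes that passed at 1 hour and 5 that passed at 4 hours were not called over both times.

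**Figure D4:**
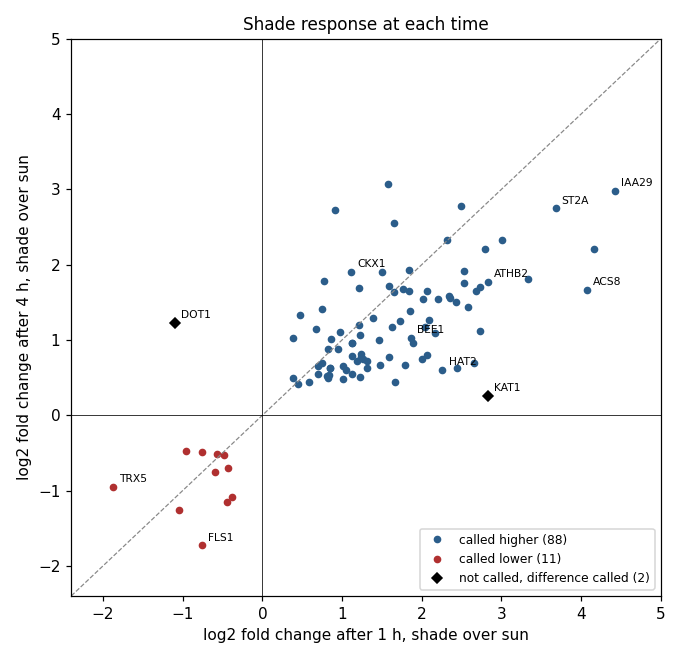
Log2 fold change of shade over sun after 1 hour (horizontal axis) and after 4 hours (vertical axis) for the 99 called genes and for *KAT1* and *DOT1*, with a dashed line where both are equal. The 99 genes lie in the quadrants where both times share a direction, 69 of the 88 rises lie below the dashed line, and *KAT1* and *DOT1* lie far from it.

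*KAT1*, a potassium channel gene of guard cells, was the clearest of those 35 genes. It held 11 and 11.4 CPM in sun against 85.2 and 86.2 CPM in shade at 1 hour, then 17.4 and 15.2 CPM in sun against 22.3 and 17.4 CPM in shade at 4 hours. Over both times its log2 fold change was 1.55 (SE 0.36, adjusted p = 0.0953). Of the other markers on the guard cell list none was called over both times, with *FAMA*, which drives guard cell fate, at 0.01 and *TGG1*, the most abundant, at 0.24. At 1 hour the 10 markers, *KAT1* included, summed to between 1252 and 1808 CPM in sun and between 2050 and 2259 CPM in shade. At 4 hours the sums were between 2974 and 3072 CPM in sun and between 2441 and 3776 CPM in shade. Whether the share of guard cells differed was not tested. *PIN3*, *YUC9* and *IAA1* were likewise past the threshold at 1 hour and not over both times.

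The lists without a called gene covered clock (20 tested), antenna and photosystem (32), chlorophyll synthesis and breakdown (22), salicylic acid defence (13), wound and touch response (16), carbon starvation (15) and cell cycle (21), beside gibberellin, abscisic acid and jasmonate signalling. Their medians ran from -0.17 in cell cycle genes to 0.26 in abscisic acid genes. In the antenna list the smallest p values were those of *LHCB4.2* (0.45, SE 0.10, adjusted p = 0.0888) and *LHCB2.3* (0.44, SE 0.10, adjusted p = 0.092), light-harvesting genes of photosystem II. In the clock list they were those of *TCP11* and *PCL1* (*LUX*), with log2 fold changes of 0.32 and 0.24 and adjusted p values of 0.555 and 0.564. Of the 99 called genes, 39 were on a list and 60 were on none.

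**Figure D5:**
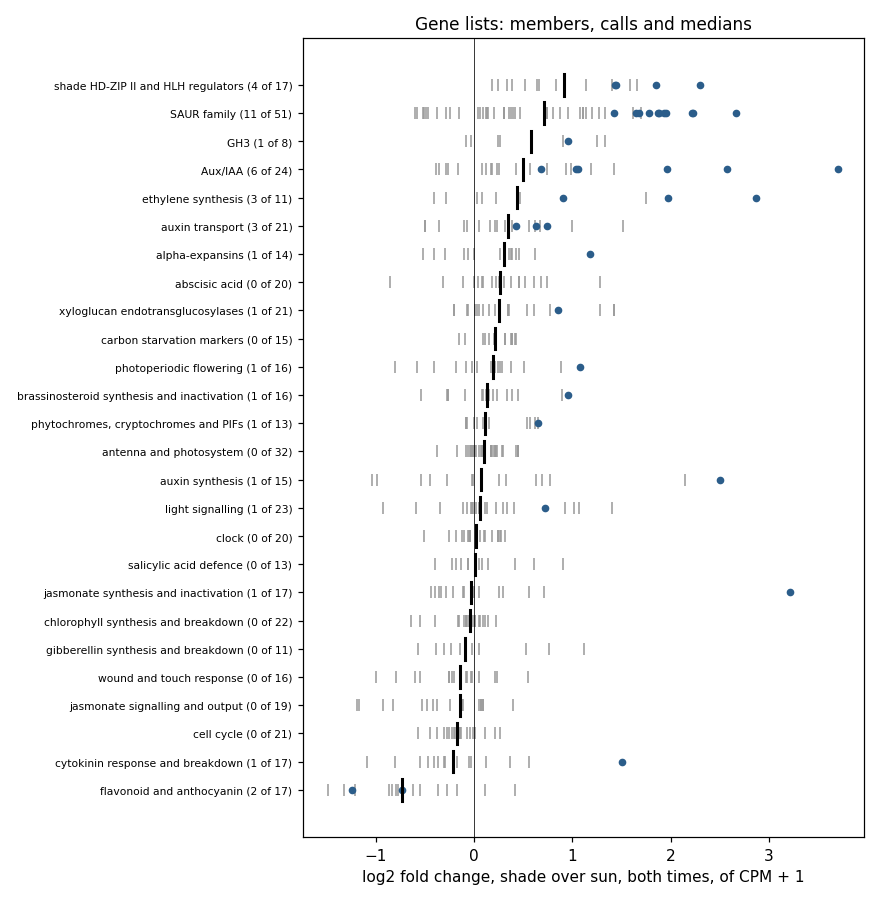
Log2 fold change of shade over sun over both times for the members of 26 gene lists, ordered by their median (black bar). Grey ticks are members that were not called, blue points are called members, and the counts in brackets give called of tested members. The flavonoid list has the lowest median (-0.73) and the shade regulators the highest (0.91).

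Many of the rising genes are scarce in sun: 29 of the 88 (33.0%) had a sun mean under 5 CPM, against 21.7% of tested genes. The sun values entered the calls, so this contrast is partly set by the selection. The 4 hour shade libraries differed most. In 73 of the 88 rising genes (83.0%) replicate 1 of shade at 4 hours, the library with the fewest reads, was above replicate 2, against 47.3% of all tested genes. For the shade libraries at 1 hour the same shares were 54.5% of the rising genes and 51.2% of tested genes. Without that library 134 genes were called (108 rises and 26 falls) and without replicate 2 of the same condition 176 (142 and 34). With each of the other libraries left out, between 52 and 81 genes were called. Just inside the threshold lay *AT5G62360* and *SHY2* (adjusted p = 0.0489 and 0.0491), and just outside it *PHYA* and *ERD5*, both at 0.0503.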

How the data were processed

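Leaf and shoot apex RNA of 8 libraries was compared. Per the paper's methods, the authors made libraries with an Illumina mRNA kit, mapped single-end reads with TopHat to TAIR10 and tested genes with edgeR at a threshold of 0.001. The deposited values are CPM per gene, and the columns sum to between 986042 and 1015651. The program that counted reads and the scaling factors are not given in the sources used here. Every value was a whole multiple of 1 read in its library (100% within 0.01 of a read), so reads were recovered. Unused columns of values numbered 0.

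Testing covered the 19280 of 33602 genes that reached 1 CPM in 2 libraries, on log2(CPM + 1), a pseudocount of 1, with limma 3.58.1 in R 4.3.3 (time as a block, 5 residual degrees of freedom, trended empirical Bayes with 9.58 prior degrees of freedom, Benjamini-Hochberg over all genes, threshold 0.05). Contrasts at each time and their difference came from a model of the 4 conditions. Alternatives were other pseudocounts, filters, scalings, models, a threshold of 0.001, edgeR 4.0.16 and DESeq2 1.42.0 on recovered reads, and each library left out. The study calls the 2 libraries of a condition biological replicates, each from its own pool of plants.

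Members and lists were chosen with earlier results of these data known. Of 614 listed symbols, 601 matched a locus in TAIR10.1 and 490 were tested. Named genes are the 10 largest rises and 10 largest falls whose libraries do not overlap within a time, up to 4 called members of each list (or the 2 smallest p), up to 10 called genes passing at neither time alone, 6 with the smallest p of the difference, genes the paper names as shade-responsive, and 2 on each side of the threshold. Other genes named, such as *PIL2*, *ST2B*, *ERS1*, *ERS2*, *FLA9*, *DGR2*, *LNG1*, *GASA6*, *IAA1* and *DOT1*, were chosen after their values were seen. The values of 1 called gene are not reported here.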

Additional observations from a re-analysis of the deposited data

Results flagged for a closer look

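In 2 genes the effect of shade differed between the times past an adjusted p of 0.05 over all tested genes (limma, 4 conditions in 1 model). In *KAT1* the log2 fold change of shade over sun was 2.83 at 1 hour and 0.26 at 4 hours, a difference of -2.57 (SE 0.29, adjusted p = 0.0111). In *DOT1*, a leaf vein patterning gene, it was -1.10 at 1 hour, where both shade libraries (22.7 and 17.2 CPM) were below both sun libraries (43.3 and 43.8 CPM), and 1.23 at 4 hours, where they were above (20.6 and 23.8 against 9.48 and 8.31 CPM), a difference of 2.33 (SE 0.31, adjusted p = 0.0386). With either difference the mean over both times is no description of the gene. *DOT1* had a log2 fold change of 0.06 over both times (adjusted p = 0.978). The number of genes past the threshold for this difference was 0 when any single library other than those of shade at 4 hours was left out, 28 without replicate 1 of shade at 4 hours and 200 without replicate 2.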

How the results depend on the processing

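At least 1 of the counts of 99 called genes, 88 rises and 11 falls moved by over 1.5 times under each of these settings. With edgeR, and without the filter on low values, only the count of falls moved that far. Without the time block limma called 5 genes (5 rises and 0 falls, with 1000 genes at an unadjusted p under 0.05), and at the threshold of 0.001 it called 9 (9 rises and 0 falls). Library weights gave 183 genes (141 and 42), with a weight of 0.359 for replicate 1 of shade at 4 hours. DESeq2 called 186 (156 and 30), edgeR called 146 (124 and 22), and without the filter on low values there were 5 falls beside 63 rises. With each library left out in turn the counts ran from 52 to 176 genes, 50 to 142 rises and 1 to 34 falls, and in these fits the lone library of a condition is assumed to vary like the others. Library weights lowered the share of rises among calls from 88.9% to 77.0%. Both edgeR and DESeq2 called 97 of the 99 genes, and none of the 99 changed direction under any setting run. The replicate block, which pairs same-numbered sun and shade libraries of a time, gave 88 genes, 85 of them shared with the 99. Deviations from the group means in same-numbered sun and shade libraries had a correlation of 0.103 at 1 hour and -0.0632 at 4 hours, so the numbers were not taken to pair libraries. Of 1864 values of named genes under the alternatives, 1537 kept their side of the threshold, 279 lost a call, 48 gained one and none reversed. Of 260 list medians 258 moved by less than the residual standard deviation of the list's median in the fit with time as a block. That spread also holds any difference in the shade response between the times, so it is not the spread of replicates alone. The cause of these shifts was not tested. Genes with few reads in sun, such as *ACS5* and *YUC9*, can show only a large change at this depth.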
